A study of Mus musculus with 12 samples.

Results

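Vomeronasal receptor genes were followed across 12 one-colour arrays of mouse heart as a set of genes that heart muscle has no known use for. Members were all probes with 1 symbol in the platform annotation that begins with Vmn1r or Vmn2r, and where a gene had several such probes the brightest was kept. This gave 88 genes, 80 of the Vmn1r family and 8 of the Vmn2r family, out of 18069 genes named by 1 symbol on 36227 probes. The Vmn1r genes include Vmn1r-ps103, whose symbol has the form used for a pseudogene. Only Vmn1r32 had a second probe. A further 22 probes that carry several symbols, at least 1 of them a vomeronasal receptor, were left out because their signal cannot be assigned to 1 gene.

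The animals were Balb/c mice that received by oral gavage either 30 mg per kg body weight of a compound named DMA, which the labels do not spell out, or the vehicle DMSO. Hearts were collected 24 h or 48 h later, which gave 4 groups of 3 arrays: DMSO 24 h, DMA 24 h, DMSO 48 h and DMA 48 h. The labels call the 3 arrays of a group biological replicates, while the design text describes the RNA of a group's hearts as isolated in a pool. The p-values below therefore measure only the spread between these samples, which may be technical. No age or sex is given.

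Vomeronasal receptors are G protein-coupled receptors of the sensory neurons of the vomeronasal organ, the nasal organ that detects pheromones in rodents. Neurons that use a Vmn1r receptor signal through the G protein subunit Gnai2 and respond mostly to small molecules. Neurons that use a Vmn2r receptor signal through Gnao1 and respond mostly to peptides and proteins, and both kinds open the cation channel Trpc2. Each neuron chooses a very small part of the repertoire, the genes lie in tandem clusters of close copies, and no role in cardiac muscle is established. Because of the close copies, a probe may also bind transcripts of other members, so the assignment of a signal to a single receptor is uncertain throughout.

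RefSeq annotation of assembly GRCm38.p6 lists all 88 genes under the same symbol, on 7 chromosomes. Chromosome 7 held 28 of them, chromosome 6 held 24, chromosome 13 held 19 and chromosome 17 held 13, with 2 on chromosome 5 and 1 each on chromosomes 4 and 10.

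The deposited values were log2 intensities. Array medians lay between 6.03 and 6.04 at 24 h and between 6.35 and 6.36 at 48 h, so levels set across the times carry a scaling that differs between them, whereas differences within a time do not. Of 15 cardiomyocyte markers on the array, 12 were above the array median on most arrays with a value. Several of the 12 had a value on 1 to 3 arrays only. For Tnni3, Myl2, Pln, Fabp3 and Mb the 1 value was that of DMA 24 h replicate 3, an array described below. Ckm, the muscle creatine kinase, ranged from 8.72 to 13.76 over 12 arrays, and Nkx2-5, a cardiac transcription factor, from 10.65 to 11.98 on 11 arrays with 6.39 on DMA 24 h replicate 3. Others were dimmer: Myh6, a cardiac myosin heavy chain, ranged from 3.84 to 9.82 and was above the array median on 8 arrays, and Ryr2, the cardiac calcium release channel, from 5.41 to 7.54 and on 2. Some strong cardiac transcripts lacked values, and Actc1 and Atp2a2 had none on any array. DMA 24 h replicate 3 stood apart from the other arrays. Its lowest value was 1.37, against -1.0 to -0.22 on the other 11, and its deviations from the median of the 24 h arrays had an SD of 1.80 over all probes, against 0.72 to 0.96 on the other 24 h arrays. Floor values, and at 24 h the median difference and the counts without overlap, are also given without it.

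Most receptor probes were dim. Over arrays with a value, the mean level of a member had a median of 4.59, against 6.17 over all probes, and ran from 3.00 for Vmn1r231 to 8.49 for Vmn1r4. The mean was under 4 in 16 members, between 4 and 5 in 41, between 5 and 6 in 18, between 6 and 8 in 8, and 8 or more in 5. A probe's brightness also depends on its sequence, so these are orders of probe signal and not of RNA between genes.

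The receptors sat in the lower part of every array. Their median lay below the array median by a log2 difference that ranged from -1.76 (DMSO 48 h replicate 2) to -0.73 (DMA 24 h replicate 3), and the share of members below the array median was 81.6% to 86.2% on 11 arrays and 67.0% on DMA 24 h replicate 3. The median receptor level was 4.68 ± 0.18 (SD, n = 3 arrays) for DMSO 24 h, 4.93 ± 0.34 for DMA 24 h (4.69 and 4.78 on the arrays other than replicate 3), 4.77 ± 0.16 for DMSO 48 h and 4.96 ± 0.16 for DMA 48 h. The gap between DMSO and DMA was smaller than the DMA SD at 24 h and slightly larger than either SD at 48 h, and it was not tested.

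**Figure D1:**
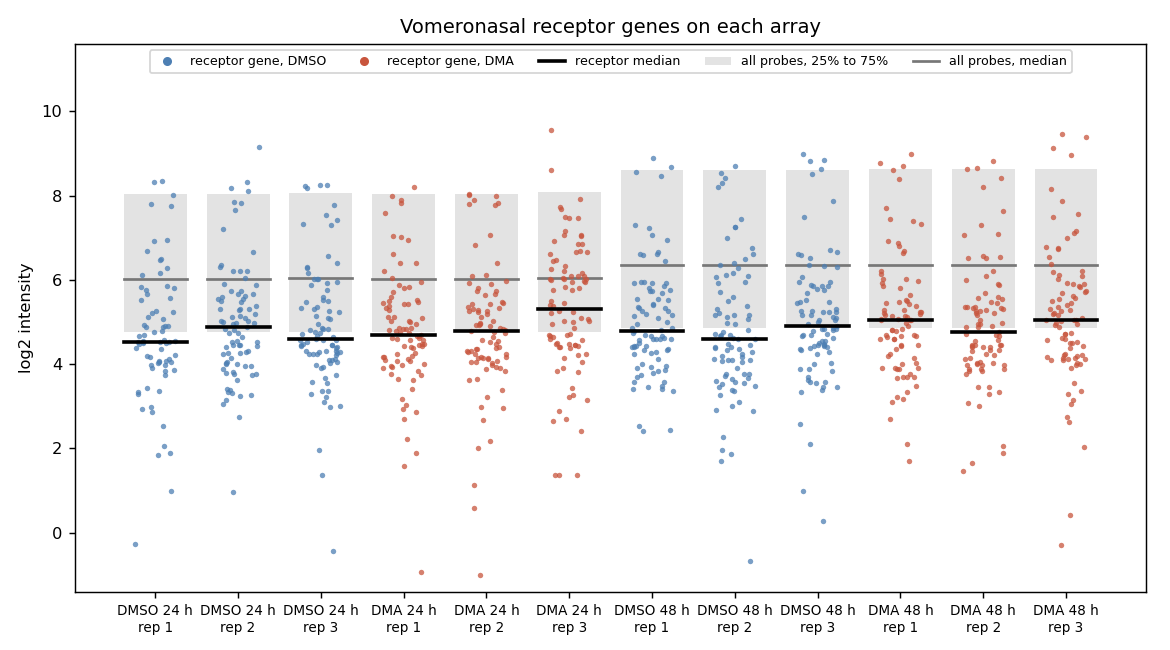
Log2 intensity (vertical axis) of each vomeronasal receptor gene on each of the 12 arrays, with blue points for DMSO and red points for DMA, the receptor median as a black line, and the middle 25% to 75% of all probes as a grey box with its median. The receptor median is below the median of all probes on every array and comes closest to it on DMA 24 h replicate 3.

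Measured array by array, 49 members (55.7%) were below the array median on every array with a value, compared with 28.3% of all probes and 44.1% of the 501 olfactory receptor genes, the receptors of the main nasal epithelium, which served as a second family foreign to heart. Another 30 lay on different sides on different arrays. The remaining 9 were above the array median on every array with a value, compared with 31.5% of all probes and 13.2% of the olfactory receptor genes. These were Vmn1r4, Vmn1r58, Vmn1r70, Vmn1r74, Vmn1r84, Vmn1r217, Vmn2r25, Vmn2r81 and Vmn2r122.

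The 5 brightest formed a group of their own, separated from the next member, Vmn2r81 at 7.33, by the gap up to Vmn1r74 at 8.20. Vmn1r74 had 7.80, 7.85 and 7.78 in DMSO 24 h, 7.82, 8.0 and 7.91 in DMA 24 h, 8.46, 8.29 and 8.51 in DMSO 48 h and 8.61, 8.42 and 8.97 in DMA 48 h. Its DMSO and DMA values overlapped at both times, and its SD within groups, 0.16, was the smallest of the tested members. Vmn1r4 had 8.35, 8.12 and 8.25 in DMSO 24 h, 8.20, 8.03 and 7.47 in DMA 24 h, 8.90, 8.54 and 8.98 in DMSO 48 h and 9.0, 8.65 and 9.38 in DMA 48 h. Again the groups overlapped at each time. Vmn1r84 (mean 8.46), Vmn1r58 (8.35) and Vmn1r70 (8.24) lay within the same narrow band, and the values of these 5 genes ranged over 1.19 to 2.08 across arrays, so their ranges overlapped. Vmn1r58 varied most of the 5, with an SD within groups of 0.65 and 9.57 on DMA 24 h replicate 3 as its highest value. The files hold no detection call, so a bright value shows fluorescence on the probe and not by itself a transcript of the named receptor.

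The dimmest members changed place from array to array. Vmn1r231, the lowest by mean, had 4.39, 4.40 and 4.31 in DMSO 24 h, -0.93, 2.17 and 1.37 in DMA 24 h, 3.41 and 1.87 on the DMSO 48 h arrays with a value, and 4.82, 4.13 and 3.05 in DMA 48 h. The 3 DMSO 24 h values were nearly equal while the 3 DMA 24 h values spread widely below them. Vmn1r188 (mean 3.38, range 1.59 to 4.53), Vmn1r81 (3.55, 1.37 to 4.44) and Vmn1r19 (3.58, -0.29 to 5.10) followed, and none of these 4 was above the array median on any array. At the middle of the order, Vmn1r199 ranged from 3.57 to 5.28, Vmn1r54 from 1.89 to 7.90 and Vmn1r11 from 4.29 to 5.38, so members of nearly equal mean, 4.59 to 4.61, differed widely in how steady they were.

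The 8 Vmn2r genes had means from 3.92 to 7.33, with none among the 5 brightest members. Vmn2r81 was steady, between 6.95 and 7.87, and Vmn2r122 (6.41 to 8.16) and Vmn2r30 (6.04 to 7.15) were also bright. Vmn2r25 had 10 values, between 6.08 and 7.70, but only 1 of them in DMSO 24 h, and was the only member that could not be tested. Vmn2r10 had a mean of 5.91, Vmn2r37 of 4.41, Vmn2r9 of 4.26 and Vmn2r51 of 3.92. Vmn2r51 held both extremes of the family: 9.16 on DMSO 24 h replicate 2 and -1.0, the lowest value of that array, on DMA 24 h replicate 2.

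Floor values were rare. Of 1056 possible values 1024 were present, and 8 of these equalled the lowest value of their array, 0.781% of the receptor values against 0.406% of all values and 0.55% of olfactory receptor values. Without DMA 24 h replicate 3 there were 5 in 936 receptor values, 0.534%, against 0.313% of all values. Vmn1r231 was at the floor on 2 arrays (DMA 24 h replicates 1 and 3), and Vmn1r21, Vmn1r22, Vmn1r26, Vmn1r81, Vmn1r85 and Vmn2r51 were on 1 array each. DMA 24 h replicate 3, whose floor was the highest, held 3 of the 8, those of Vmn1r231, Vmn1r21 and Vmn1r81. Some floor values stood far below the same gene's other values. Vmn1r85 had 4.81, -0.66 and 4.55 in DMSO 48 h, and Vmn1r22 had -0.26, 3.06 and 3.11 in DMSO 24 h. In both genes the floor value came from a single array of the group.

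Missing values were spread over 27 members and made up 3.03% of the possible receptor values, against 3.58% over all probes. DMSO 24 h replicate 1 lacked 14 of the 88 members (15.9%), and 11.03% of all its probes. The other 61 members had a value on all 12 arrays.

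The order of the bright members was reproducible and that of the dim ones was not. Between pairs of arrays, the correlation over the 31 members with a mean of 5 or more had a median of 0.860 (66 pairs of arrays, which share genes and arrays, so no test was made). Over the 57 members with a mean under 5 it was 0.0785, with a range from -0.311 to 0.357. Olfactory receptor genes gave 0.840 at 5 or more and 0.0747 under 5. The split itself narrows the range of levels in the lower class, which by itself lowers a correlation. Over all 88 members the median was 0.637, and over the 11 pairs with DMA 24 h replicate 3 it was 0.526.

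Replicate spread fell with level, although both come from the same values, so a single low value lowers the mean and raises the SD. The SD within groups had a median of 0.94 among the 57 members under 5 and of 0.51 among the 30 tested members at 5 or more. Over all probes the median was 1.17 under 4, 0.80 between 4 and 5 and 0.65 between 5 and 6. It was 0.59 between 6 and 7, 0.62 between 7 and 8 and 0.54 at 8 or more, so the fall was not steady. Within DMA 24 h alone, the root mean square SD over all probes was 1.30 under 4, 0.93 between 5 and 6 and 1.44 at 8 or more. Vmn2r51 had the largest SD within groups, 2.61. Vmn1r26, next in line, had 6.68, 4.56 and -0.44 in DMSO 24 h, and 4.42, 3.11 and 0.98 in DMSO 48 h. Neither of these groups had received DMA, and the arrays of a group differed by several log2 units. Over the members the difference between lowest and highest value across arrays had a median of 2.58, exceeded 2 in 57 genes and exceeded 4 in 18.

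**Figure D2:**
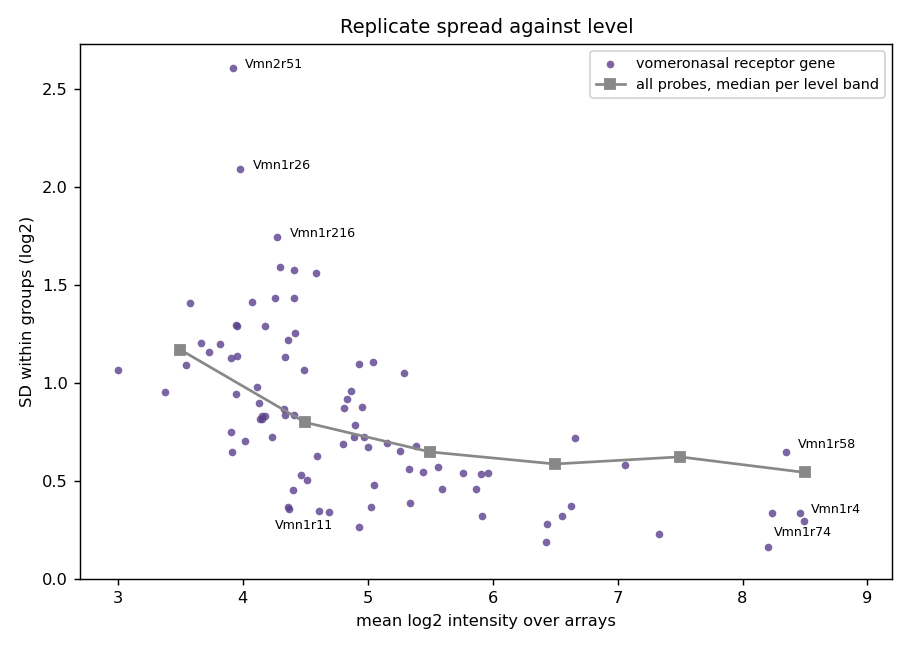
SD within groups (log2, vertical axis) against mean log2 intensity over arrays (horizontal axis) for each tested receptor gene, with the median over all probes in each level band as grey squares. The genes with the largest SD, led by Vmn2r51 at 2.61, have means under 5, while Vmn1r74 at 8.20 has an SD of 0.16.

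Between DMA and DMSO at 24 h, no receptor passed the test: limma over all probes, with Benjamini-Hochberg adjustment, called 0 of 87 members at an adjusted p under 0.05, and 0% of all 35401 probes. At an unadjusted p under 0.05 there were 5 members (5.75%), against 3.03% of all probes. Of the members with a mean under 5 there were 4 (7.02%), against 5.46% of all probes and 5.39% of olfactory receptor genes of that level. DMA was the higher group in 47 of 87 members (54%), against 55.8% of all probes, and the median difference (DMA minus DMSO) was 0.10, against 0.09 over all probes and 0.22 over olfactory receptor genes. Without DMA 24 h replicate 3 the median was -0.06. On that array 39 of the 88 members had their highest value of the 24 h arrays and 10 their lowest.

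At 24 h the DMA and DMSO values did not overlap in 10 members. DMA was higher in 7 (8.05%, against 4.51% of all probes) and lower in 3 (3.45%, against 3.48%). Without DMA replicate 3, which leaves 2 DMA arrays and makes a gap more frequent, DMA was higher in 10 (against 8.63% of all probes) and lower in 8 (against 9.58%). Vmn1r231 had the smallest p, with the values given above: the DMSO mean was 4.37 ± 0.05 (SD, n = 3) and the DMA mean 0.87 ± 1.61, a difference of -3.50 (SE 0.77, limma adjusted p = 0.871). Of its 3 DMA values, 2 were floor values, so the floor sets part of this difference, which was -3.75 without DMA replicate 3. Vmn1r22 had -0.26, 3.06 and 3.11 in DMSO and 4.96, 3.99 and 5.96 in DMA. All 3 DMA values were higher, by 3.00 on average (SE 0.84, limma adjusted p = 0.871), and by 1.88 without DMSO replicate 1, the array on which the gene was at the floor.

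Smaller differences followed. Vmn1r211 had 3.83, 4.64 and 4.45 in DMSO and 5.43 and 5.81 on the DMA arrays with a value, a difference of 1.32 (SE 0.42). Vmn1r225 had 4.19, 3.24 and 4.56 in DMSO and 4.69, 5.26 and 5.07 in DMA, a difference of 1.01 (SE 0.41) that was 0.63 without DMSO replicate 2. Vmn1r219 had 3.43, 4.74 and 4.58 in DMSO and 3.16, 2.67 and 3.28 in DMA, a difference of -1.21 (SE 0.52). In the latter pair the groups were adjacent with little space between them, and for all 3 genes the limma adjusted p was 0.871. Vmn1r234 had a difference of 1.80 (SE 0.83), which was 0.92 without DMSO replicate 2, where its value was 0.97. Vmn1r11 did not overlap either, but its difference was only -0.26 (SE 0.36).

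Of the largest differences at 24 h in either direction, those of Vmn1r231, Vmn1r22 and Vmn1r234, given above, came without overlap. The others, of Vmn2r51, Vmn1r216 and Vmn1r27, came with overlapping groups. Vmn2r51 had 9.16 and 4.04 on the DMSO arrays with a value and 4.75, -1.0 and 4.44 in DMA, a difference of -3.87 (SE 1.99) whose leave-one-out values ran from -6.43 (without DMSO replicate 3) through -2.00 (without DMA replicate 2) to -1.31 (without DMSO replicate 2). Vmn1r216 had 4.88, 4.46 and 1.37 in DMSO and 4.68, 8.03 and 4.38 in DMA, a difference of 2.13 (SE 1.23). It was 0.96 without DMA replicate 2 and 1.03 without DMSO replicate 3. For both genes 1 high and 1 low value, on different arrays, made up most of the difference. Vmn1r27 had a difference of -1.39 (SE 0.72) with overlapping groups.

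At 48 h the result was again 0 of 87 members called by limma at an adjusted p under 0.05, and 0% of all probes. Unadjusted p-values were under 0.05 in 4 members (4.6%), against 1.4% of all probes. All 4 had a mean under 5, which was 7.02% of the members of that level. The share at that level was 3.97% of all probes and 2.49% of olfactory receptor genes. DMA was the higher group in 54 of 87 (62.1%), against 51.6% of all probes, with a median difference of 0.20, against 0.01 over all probes and 0.11 over olfactory receptor genes. The receptor median was 0.07 without DMA 48 h replicate 3, and also 0.07 without DMSO 48 h replicate 2.

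The groups did not overlap in 13 members at 48 h. DMA was higher in 11 (12.6%, against 4.42% of all probes) and lower in 2 (2.3%, against 2.79%). Of the members with a mean under 5, DMA was higher in 8 (14%, against 6.08% of all probes and 5.81% of olfactory receptor genes of that level). It was lower in 2 of them (3.51%, against 4.4% and 2.49%). Vmn2r37 had 2.40, 1.96 and 4.29 in DMSO and 4.67, 5.55 and 5.29 in DMA, a difference of 2.28 (SE 0.63, limma adjusted p = 1.0). Its 24 h values, 4.54, 4.97 and 4.67 in DMSO against 3.83, 4.90 and 5.83 in DMA, overlapped, and the 2 low DMSO 48 h values were the lowest of all its arrays. Vmn1r235 had 5.27, 5.39 and 5.75 in DMSO and 4.69, 4.03 and 4.14 in DMA, a difference of -1.18 (SE 0.32). Vmn1r237 had 4.73, 4.77 and 5.70 in DMSO and 3.71, 4.01 and 4.50 in DMA, a difference of -0.99 (SE 0.56). Both genes lay on chromosome 17, and both had their DMA values below all DMSO values.

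Vmn1r217, one of the brighter members, had 6.61, 6.41 and 6.61 in DMSO 48 h and 6.69, 7.07 and 7.56 in DMA 48 h. The groups were separated by a small margin, with a difference of 0.56 (SE 0.37), or 0.33 without DMA replicate 3. Vmn1r220 rested on 2 DMA values, 5.32 and 4.75, against 2.54, 3.40 and 4.62 in DMSO, a difference of 1.52 (SE 1.02). Vmn1r85, whose floor value in DMSO was given above, had 5.17, 4.40 and 5.71 in DMA, a difference of 2.19 (SE 1.13) that was 0.41 without DMSO replicate 2. Its groups overlapped.

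The 3 largest negative differences at 48 h each depended on single arrays. Vmn1r66 had 5.10, 4.42 and 5.88 in DMSO and 5.05, 5.27 and 0.43 in DMA, a difference of -1.55, which was 0.03 when DMA replicate 3 was left out and -2.39 when DMA replicate 2 was. Vmn1r19 had 3.46, 4.42 and 3.47 in DMSO and 3.78, 4.24 and -0.29 in DMA, a difference of -1.21, which became 0.23 with DMA replicate 3 left out and -2.04 with DMA replicate 2 left out. In both genes 1 low value on the same array set the sign. Vmn1r24 had 4.11, 6.12 and 3.70 in DMSO and 4.60, 1.46 and 4.10 in DMA, a difference of -1.26, which was -0.52 without DMSO replicate 2 and -0.29 without DMA replicate 2.

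**Figure D3:**
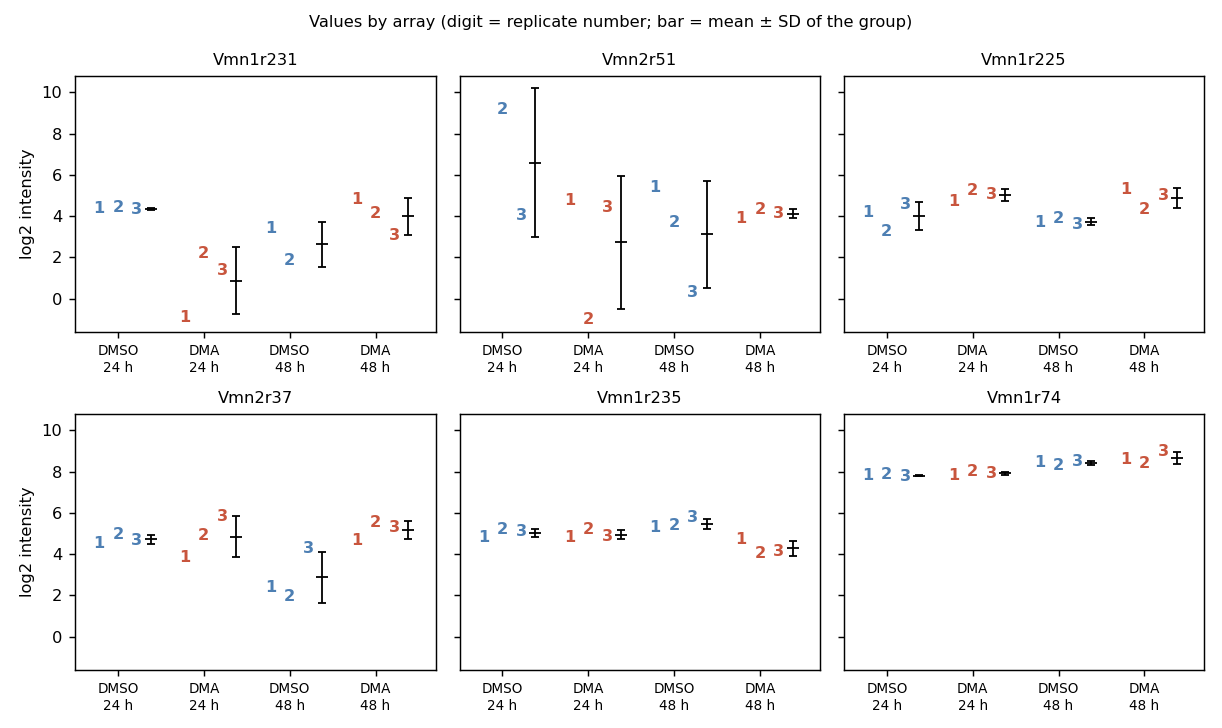
Log2 intensity (vertical axis) of 6 receptor genes on every array, with the replicate number as the plotting symbol (blue for DMSO, red for DMA) and the group mean ± SD as a black bar beside it. Vmn1r231 and Vmn2r51 scatter over several log2 units, Vmn1r225 is higher in DMA at both times, and Vmn1r74 stays within 7.78 to 8.97.

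The difference was positive at both times in 28 members, negative at both in 14 and of opposite sign in 45. The sign was thus the same in 48.3% of the members, against 50.2% of all probes. Vmn1r225 was the one member whose groups did not overlap and whose DMA values were higher at both times: 3.68, 3.91 and 3.58 in DMSO 48 h against 5.30, 4.33 and 5.02 in DMA 48 h, a difference of 1.16 (SE 0.41). Over both times its difference was 1.09 (SE 0.29, limma adjusted p = 0.99). This comparison called 0 of 87 members and 0% of all probes, and 6 members (6.9%) had an unadjusted p under 0.05, against 1.74% of all probes. In bulk tissue a change in the number of cells that carry a transcript and a change in RNA per cell cannot be told apart.

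The test of whether the DMA difference itself changed between 24 h and 48 h also called 0 members and 0% of all probes, with 4 members (4.6%) at an unadjusted p under 0.05, against 1.96% of all probes. Vmn1r231 had the smallest p, with a change of 4.86 (SE 1.16, limma adjusted p = 0.999) from the negative difference at 24 h to 1.36 at 48 h. Vmn1r219, lower in DMA without overlap at 24 h, was higher without overlap at 48 h, with 3.58, 4.12 and 3.38 in DMSO and 5.91 and 4.24 on the DMA arrays with a value. Its change between the times was 2.60 (SE 0.78, limma adjusted p = 0.999), and the 48 h difference of 1.38 was 0.55 with DMA replicate 2 left out and 2.22 with DMA replicate 3 left out.

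Across the 87 tested members the DMA minus DMSO differences had an SD of 0.948 at 24 h and 0.724 at 48 h. The SD that the replicate spread alone gives for a difference of group means was 0.887 at 24 h and 0.681 at 48 h, so the observed spread was 1.07 and 1.06 times as large. Over all probes the SD was 0.762 at 24 h and 0.521 at 48 h, 0.923 and 0.856 times the SD from their replicate spread. Over olfactory receptor genes it was 0.700 and 0.612, or 0.852 and 0.880 times. For members with a mean under 5 the SD was 1.12 at 24 h and 0.868 at 48 h, and for those at 5 or more it was 0.480 and 0.313. Under 4 it was 1.74 and 1.07 over 16 members, against 1.05 and 1.04 over all probes of that level. Between 4 and 5 it was 0.742 and 0.793 over 41 members, against 0.769 and 0.680. The comparison with the replicate spread takes the arrays of the groups as independent. With same-numbered arrays as pairs, the SD of the mean pair differences was 1.02 at 24 h and 0.729 at 48 h, against 1.06 and 0.669 from the spread between pairs, ratios of 0.966 and 1.09, with 0.973 and 1.02 over all probes.

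Differences larger than 1 were found in 16 members at 24 h (18.4%, against 16.1% of all probes) and in 15 at 48 h (17.2%, against 6.48%). All but 1 of those at 24 h, and all at 48 h, had a mean under 5. Among members under 5 the shares were 26.3% at each time, against 21.2% and 18.4% of all probes under 5. Olfactory receptor genes under 5 gave 25.3% at 24 h and 15.8% at 48 h. At 5 or more, 1 of 30 members at 24 h, Vmn1r211, and 0 of 30 at 48 h passed a difference of 1, against 13.9% and 1.19% of all probes of that level.

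**Figure D4:**
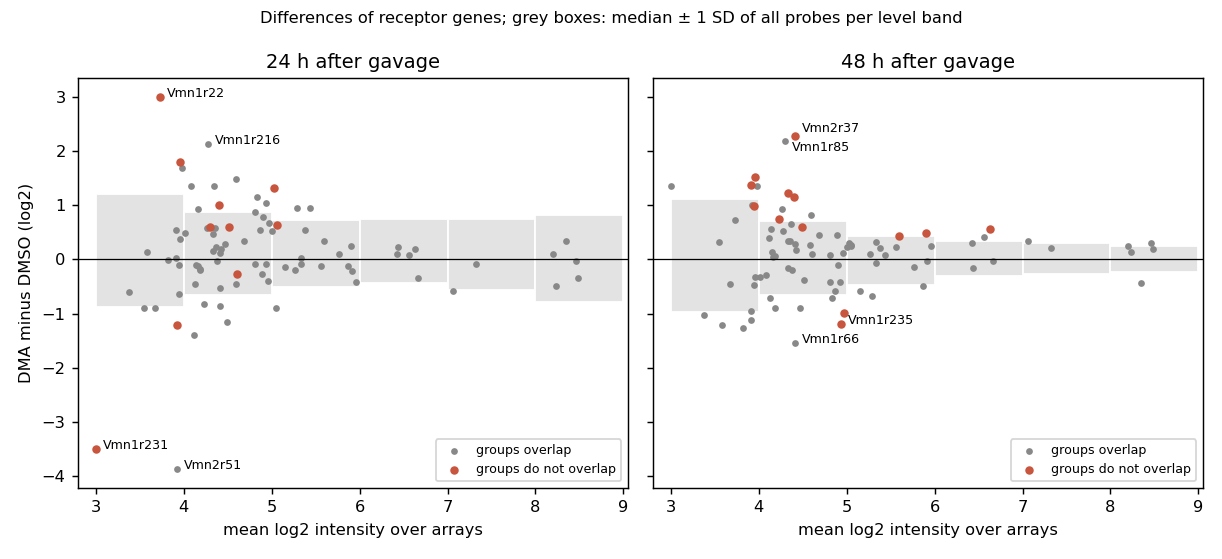
Difference DMA minus DMSO (log2, vertical axis) against mean log2 intensity over arrays (horizontal axis) for the 87 tested receptor genes, at 24 h and at 48 h, with red points where the groups do not overlap. Grey boxes give the median ± 1 SD of all probes in each level band, and the widest scatter, from Vmn2r51 at -3.87 to Vmn1r22 at 3.00, lies under a mean of 4.

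Single arrays of the same treatment also differed widely. The SD over members of the difference between a pair of DMSO arrays was 1.25 to 1.47 at 24 h and 1.04 to 1.21 at 48 h. Between a DMA and a DMSO array it was 1.23 to 1.73 at 24 h and 0.867 to 1.43 at 48 h, and between a pair of DMA arrays 1.28 to 1.71 and 0.976 to 1.33. The ranges overlapped at both times. The scaled median absolute deviation, which single values move less, had a median of 0.676 between DMSO arrays at 24 h. It was 0.989 between a DMA and a DMSO array and 1.03 between DMA arrays. At 48 h these medians were 0.714, 0.810 and 1.01. The order of the kinds of pair was not tested.

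A part of the 48 h differences ran with the order of the probe numbers on 1 array. DMA 48 h replicate 3 departed from the median 48 h array by an amount that, followed as a running median of 501 probes along the probe number, ranged from 0.45 down to -0.93 over the positions of the members. The 8 members with probe numbers of the block 371, that is Vmn1r233, Vmn1r234, Vmn1r235, Vmn1r236 and Vmn1r237 of chromosome 17 and Vmn1r73, Vmn1r76 and Vmn1r80 of chromosome 7, had a median trend of -0.63 there. Their median difference at 48 h was -0.54, with 7 of 8 negative. It was -0.30 after every array's own trend of this kind was subtracted, and -0.13 without DMA 48 h replicate 3. Vmn1r235 itself had -0.95 after subtraction and -1.11 without the array. The 13 members of chromosome 17 had a median difference of -0.33 at 48 h, -0.16 after subtraction and -0.05 without the array. Of these, the 8 with probe numbers of the block 289 had a median difference of 0.20, with 3 of 8 negative, and a median trend of -0.08. For the 22 members with the lowest trend values the median difference was -0.37, and -0.05 without the array. What the probe number stands for on the slide was not given in the sources used here.

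**Figure D5:**
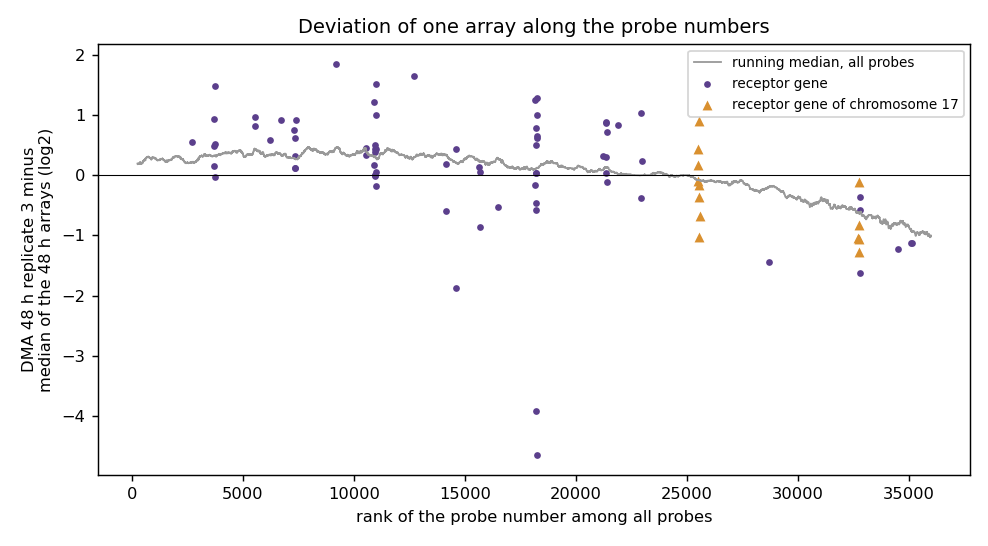
Deviation of DMA 48 h replicate 3 from the median of the 48 h arrays (log2, vertical axis) against the rank of the probe number (horizontal axis), with receptor genes of chromosome 17 as orange triangles, other receptor genes as purple points and the running median of all probes as a grey line, not drawn at either end. The line falls toward high probe numbers, and all the triangles at its far right lie below 0.

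Other genes of vomeronasal signalling gave 0 calls at either time by limma with adjustment over all probes, and 0 at an unadjusted p under 0.05. Of 11 transduction and neuronal genes sought, 9 had a named probe and were tested, with DMA higher in 2 at 24 h and in 4 at 48 h. Of the 9, 5 were above the array median on most arrays. Gnai2, which most cell types express, was above it on all 12 (7.58 to 10.11), as was the chloride channel gene Ano1 (6.99 to 10.29). The transcription factor genes Meis2 and Bcl11b were above it on 11 and 9 arrays, and the G protein subunit gene Gng8 on 7. Gnao1 (4.78 to 6.43) and Ano2, another chloride channel gene (at most 6.93), were above it on 1 each. Omp, the marker of mature chemosensory neurons (4.17 to 5.66), and Tfap2e, a transcription factor of Gnao1-type vomeronasal neurons (2.68 to 5.25), were above it on no array. No named probe of Trpc2 was analysed here.

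Of 16 vomeronasal co-receptor and formyl peptide receptor genes sought, 6 were measured and tested. H2-M1, a nonclassical major histocompatibility gene expressed with Vmn2r receptors, ranged from 2.97 to 5.39, and the formyl peptide receptors Fpr-rs3 and Fpr-rs6 had means of 4.29 and 3.86. All 3 stayed below the array median on every array with a value. H2-M11 (mean 7.05) was above it on all 10 arrays with a value. Another formyl peptide receptor, Fpr-rs4 (mean 6.68), was above it on 10 of the 11 arrays with a value, and H2-M9 on 1 of 12. Of 25 genes for pheromone-carrying and odorant-binding proteins sought, 4 were measured: Mup5 (mean 3.83), a major urinary protein, and Esp16 (3.84), an exocrine gland peptide gene, were never above the array median, Obp1a was at 5.89, and Obp2a, an odorant-binding protein gene, was bright on all 12 arrays, between 10.01 and 11.13. Neither the dim markers nor the bright probes were tested for what they bind.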

How the data were processed

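RNA of mouse heart was measured on 12 one-colour arrays. Per the labels' protocols, myocardial RNA was reduced to its polyA fraction and amplified into biotin-labelled cRNA, which streptavidin-Cy5 made visible on the slides. The authors deposited log2 values per probe; background correction and normalization are not given in the sources used here, and the log base was read from maxima that stay under the ceiling of a scanner on that scale. Gene names came from the platform annotation.

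The members and gene lists were chosen with earlier results of these data known. Probes with at least 2 values in each of the 4 groups entered a model of limma 3.58.1 (under R 4.3.3; lmFit, then eBayes; 1 term per group, all 12 arrays), with Benjamini-Hochberg adjustment over 35401 probes and a threshold of 0.05. The fit was tested on simulated data. Summaries used Python 3.11.15 with pandas 2.3.3, and plots matplotlib 3.10.9. Precision is limited by the number of arrays, and 3 against 3 arrays allow no exact permutation p below 0.1 (two-sided).

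Named genes were, per time and direction, the 4 with the smallest p among those without overlap and the 3 with the largest difference, plus the 6 brightest, the 4 dimmest, the 4 with most floor values and the 3 nearest the median level; further genes were named after their values were seen, where a count of a few was listed or an SD, a Vmn2r gene or a probe block was described.

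Samples of the same replicate number deviated together: within a time, their deviations from the group means had an r of 0.105 to 0.19 (24 h) and 0.276 to 0.335 (48 h), against -0.0981 to -0.0118 and -0.208 to -0.0926 for different numbers. The numbers were therefore taken to pair the samples in the replicate block and the pair differences only, a pairing that comes from the data. The main model held no such term, so its SEs and p-values take the arrays as independent. Alternatives covered normalization, filters, probe choice, variance moderation, array weights, the trend along probe numbers, the replicate block and leaving out arrays.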

Additional observations from a re-analysis of the deposited data

How the results depend on the processing

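Under every alternative run, 0 receptors were called at either time, over both times and for the change between the times. At 24 h the count at an unadjusted p under 0.05 (5) was 2 with values on all 12 arrays, 3 with an intensity trend, 0 when probes of less than median level were dropped, and 4 to 8 when 1 array was left out (8 without DMA replicate 2 or without DMSO replicate 3). At 48 h the count (4) was 0 with dim probes left out and 4 to 6 without 1 array. The spread of differences at 24 h (0.948) was 0.709 with floor values set to missing, 0.301 with dim probes left out, and 0.918 to 1.19 without 1 array. At 48 h the spread (0.724) was 0.268 with dim probes left out and 0.734 to 0.867 without 1 array. The median difference at 24 h (0.10) was -0.10 with array weights and -0.06 to 0.16 without 1 array. At 48 h the median (0.20) was 0.0757 with array weights, 0.0924 with the probe-number trend removed, and 0.0697 to 0.27 without 1 array. Leaving out both DMA 24 h replicate 3 and DMA 48 h replicate 3, an alternative chosen after seeing the data, gave 0.0697 at 48 h. The cause of these shifts was not tested, apart from the smaller numbers of genes or arrays that some alternatives leave. With the replicate block the counts were 5 at 24 h and 6 at 48 h and the spreads 1.02 and 0.729, and no call changed. Of 21 named differences, 2 reversed: at 48 h Vmn1r66 ranged from -2.39 to 0.0311 and Vmn1r19 from -2.04 to 0.227 without 1 array, with the positive values without DMA 48 h replicate 3 and again without both of those arrays. Dim signal, a few values at the floor and 3 arrays per group limit what these receptors can show.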
